A study of Mus musculus with 4 samples.

Results

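The C/EBP family (CCAAT/enhancer binding proteins) was examined in mouse bone marrow LMPP. These lymphoid-primed multipotent progenitors are early blood cells with lymphoid and myeloid potential. The members were taken as the non-control array probes whose RefSeq accession belongs to Cebpa, Cebpb, Cebpd, Cebpe, Cebpg or Cebpz. This gave 6 probes, 1 per gene, of 55681 non-control probes. All 6 genes were among the 22362 genes and unnamed transcripts that passed the filter on dim probes. Every LMPP came from IRF8-GFP knock-in mice, in which green fluorescent protein reports the transcription factor IRF8, and the labels used here give no strain, age or zygosity. The sort took cells without lineage markers, IL-7R and CD150 and with Sca-1, CD117, CD34 and CD135, and split them by GFP into cells without the reporter signal (negative) and with it (positive). Arrays were one-colour, 2 for each group, labelled exp 1 and exp 2. The labels do not say that these came from separate animals, so p-values cover just the variation among these 4 arrays, possibly technical.

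C/EBP proteins bind DNA through a basic region and pair through a leucine zipper (bZIP), and they drive the myeloid branch of blood formation. C/EBP alpha is required for granulocyte and monocyte progenitors, C/EBP beta serves granulocyte production under stress and monocyte survival, C/EBP delta is induced in inflammation, and C/EBP epsilon is needed for the last steps of neutrophil maturation. C/EBP gamma lacks an activating domain and works in pairs with other bZIP proteins such as ATF4. The gene named Cebpz is different in kind: it encodes a CCAAT-binding nucleolar protein without a leucine zipper that acts in ribosome assembly. IRF8 is known to bind C/EBP alpha and to restrain its activity in monocyte and dendritic cell progenitors.

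Values below are log2 signals relative to the 75th percentile of each array, and differences are positive minus negative. They can be compared between groups for 1 probe but not between probes. Signals well above background were found for all 6 members on all 4 arrays. Irf8 followed the sort and was 11.7-fold higher in the positive group. Of the 6 sorting-gate genes, Slamf1, which encodes the excluded CD150, was above background on no array, and the other 5 were on all 4. Ly6a, which encodes the selected Sca-1, was lower in the positive group (-0.96, limma adjusted p = 0.00222), and Il7r, whose protein was sorted against, was higher (2.40, adjusted p = 0.000835). Over all tested genes the median log2 difference was 0.16, and it lay between -0.14 and 0.20 under 8 ways of scaling the arrays, so each member is also given relative to that median. The arrays lay on 1 slide and were scanned on 1 day. Spots well above background numbered 33506 and 33681 on the negative arrays against 29631 and 30266 on the positive ones. The 75th percentile was 438 and 543 against 318 and 414. Before scaling, Cebpb (1577 and 2075 against 1540 and 1934) and Cebpz (2589 and 3234 against 2434 and 3227) were not higher. Neither were Cebpg (877 and 1093 against 718 and 1002) and Cebpe (260 and 352 against 193 and 301). Unscaled Cebpd had 2278 and 2575 against 2757 and 3730, and Cebpa 1055 and 1417 against 1205 and 1780. In these bulk samples fewer cells of a type and less RNA per cell cannot be told apart.

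Of the 6 members 5 were higher in IRF8-GFP positive LMPP at a limma adjusted p under 0.05. The sixth, Cebpe, had a difference of 0.10, below the median of 0.16 over all tested genes. Among all tested genes 59.9% were called, 38.5% higher and 21.4% lower. The 2 members that held under all 20 alternative settings were Cebpd and Cebpa, though several of these settings could not change the difference. The calls of Cebpb, Cebpg and Cebpz were lost under several scalings, and Cebpe did not pass. With quantile normalization 2 members were called higher, where 27.1% of all genes were higher and 24.4% lower. The same 2 were called with cyclic loess (23.7% higher and 27.1% lower), with spike-in scaling (14.8% and 36.2%) and in the authors' matrix values (27.0% and 24.5%). The positive arrays lay above the negative ones without overlap for 5 members and for 52.4% of all tested genes, and the arrays did not overlap in either direction for 82.2%. The median difference of the family was 0.37.

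**Figure D1:**
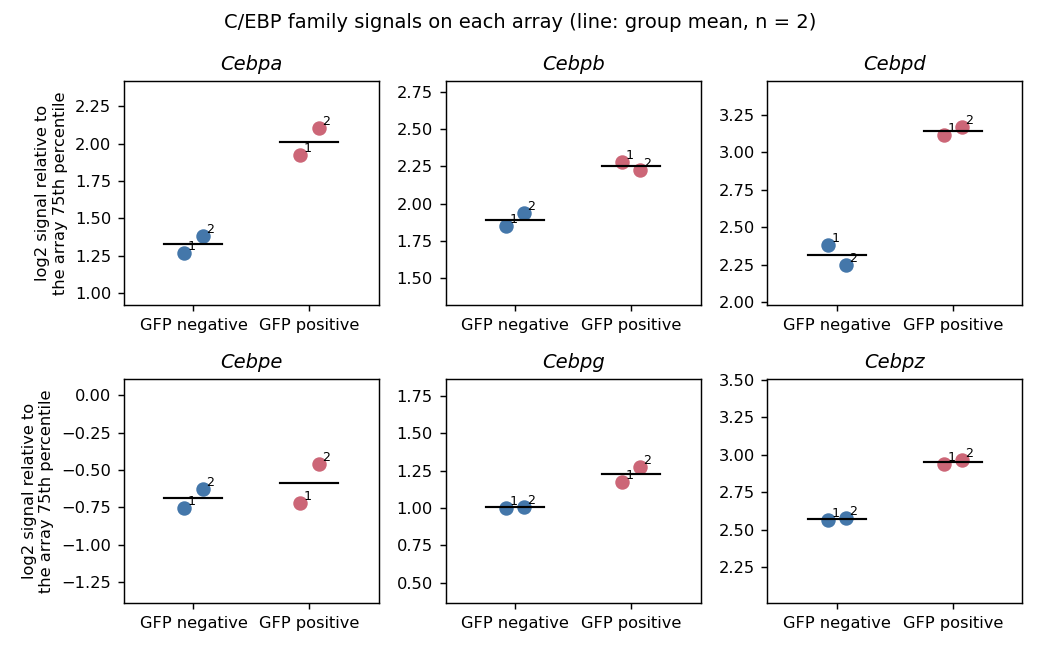
Log2 signal of each C/EBP gene relative to the 75th percentile of its array (vertical axis, the same span in every panel) on the 2 IRF8-GFP negative and 2 IRF8-GFP positive arrays; digits are the experiment numbers and lines the group means. Cebpd and Cebpa show the widest gaps between the groups, and the 2 groups overlap for Cebpe.

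Cebpd, the inflammation-induced member, had the largest difference of the family. Its log2 signal was 2.38 and 2.25 on the negative arrays and 3.12 and 3.17 on the positive arrays. Both positive arrays lay above both negative ones. The group means were 2.31 ± 0.09 (SD, n = 2) and 3.14 ± 0.04 (SD, n = 2), so the positive group was higher by 0.83 on the log2 scale (SE 0.07, 1.78-fold; limma adjusted p = 0.00268). This exceeded the difference of 95.3% of all tested genes. Under the 8 scalings the difference ran from 0.52 with spike-in scaling to 0.83, and it passed in each. Relative to the all-gene median it stayed between 0.55 and 0.67. Some scalings shift each array by 1 constant, so this relative value cannot change between them. These are the main scaling, the percentile over probes above background on all arrays, spike-in scaling and median centring, with 0.67 in each.

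Cebpa, the gene of the factor that opens granulocyte and monocyte development, came next. It had 1.27 and 1.38 on the negative arrays and 1.92 and 2.10 on the positive arrays, again without overlap. The group means of 1.33 ± 0.08 (SD, n = 2) and 2.01 ± 0.13 (SD, n = 2) gave a log2 difference of 0.69 (SE 0.09) or 1.61-fold (limma adjusted p = 0.00615), above that of 90.7% of tested genes. The negative group was not devoid of Cebpa transcript, since its probe was well above background on both negative arrays. The difference was 0.38 with spike-in scaling and 0.50 with cyclic loess, which removes any trend with brightness, and it passed in each scaling. Relative to the all-gene median it lay between 0.39 and 0.52, and was 0.52 by construction in the scalings that shift whole arrays. Without negative replicate 1 the adjusted p was 0.0451 and without negative replicate 2 it was 0.0356.

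Cebpa and Cebpg lie close together on chromosome 7, with 1 protein-coding gene model between them in RefSeq order. RefSeq start-site sequence was matched for 3 members, Cebpa, Cebpg and Cebpb. The 250 bases before each start are shown because they compare a gene whose rise held under every scaling with Cebpg beside it and with Cebpb, whose calls were lost under some scalings. They are written 5′ to 3′ on the strand of the gene, on build GRCm38.p6, with matches to 8 short motifs on either strand in capitals.
Cebpa, chr7:35119043-35119292, plus strand: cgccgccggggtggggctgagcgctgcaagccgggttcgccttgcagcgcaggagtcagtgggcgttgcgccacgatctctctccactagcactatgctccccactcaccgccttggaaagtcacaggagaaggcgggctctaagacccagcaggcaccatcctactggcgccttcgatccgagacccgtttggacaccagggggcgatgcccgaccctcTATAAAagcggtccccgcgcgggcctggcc
Cebpg, chr7:35056567-35056816, minus strand: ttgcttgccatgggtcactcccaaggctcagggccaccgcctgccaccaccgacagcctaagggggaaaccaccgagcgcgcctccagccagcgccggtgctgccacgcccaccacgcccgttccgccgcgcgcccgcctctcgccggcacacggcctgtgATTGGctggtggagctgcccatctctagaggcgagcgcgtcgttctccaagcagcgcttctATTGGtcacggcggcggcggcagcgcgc
Cebpb, chr2:167688665-167688914, plus strand: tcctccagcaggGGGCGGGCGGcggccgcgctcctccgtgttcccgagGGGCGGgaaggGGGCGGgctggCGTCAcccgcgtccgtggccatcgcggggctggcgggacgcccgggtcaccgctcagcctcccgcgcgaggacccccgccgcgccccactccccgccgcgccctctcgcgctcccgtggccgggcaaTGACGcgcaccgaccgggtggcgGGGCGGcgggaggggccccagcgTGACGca

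The 3 windows carried different elements. That of Cebpa held 1 match to the TATA core TATAAA, 30 bases before the start, which 12.4% of 32851 RefSeq windows of the same length hold. The Cebpg window held 2 matches to the NF-Y core CCAAT, both on the opposite strand (33.9% of all windows hold 1 or more). Cebpb had 3 matches to the CRE core TGACG (17.8% of windows) and 5 to the Sp1 core GGGCGG (32.7%), of which 2 overlap each other. None of the 3 windows held the interferon response element (2.98% of windows), the Ets-IRF composite element (2.30%), the E-box CACGTG (6.02%) or the C/EBP core TTNCNNAA (36.8%). Their GC content was 66.4% for Cebpa, 70.8% for Cebpg and 81.6% for Cebpb, against a median of 52.4% over all windows.

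Cebpb, a factor of stress granulopoiesis, showed a smaller difference. It had 1.85 and 1.93 on the negative arrays and 2.28 and 2.22 on the positive arrays, which did not overlap. The positive group was higher by 0.36 on the log2 scale (SE 0.06, 1.28-fold; limma adjusted p = 0.0125). It did not pass with quantile normalization (0.17), with cyclic loess (0.14) or in the authors' matrix values (0.17), and with spike-in scaling it was 0.05 (SE 0.07, adjusted p = 0.587). Relative to the all-gene median it lay between 0.13 and 0.20, and was 0.20 by construction in the scalings that shift whole arrays. Without negative replicate 1 the adjusted p was 0.0767 and without negative replicate 2 it was 0.0528.

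Cebpg, the partner without an activating domain, lay close to the threshold. It had 1.001 and 1.010 on the negative arrays against 1.17 and 1.27 on the positive arrays, a narrow gap without overlap. The log2 difference of 0.22 (SE 0.06, limma adjusted p = 0.0447) was only 0.06 above the median of all genes. Its sign turned to -0.09 with spike-in scaling and to -0.02 with the percentile taken over probes above background on all arrays. Without any 1 of the 4 arrays the call was lost, with adjusted p-values from 0.0515 to 0.17, so no direction is given for it.

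Cebpe, the gene of the late neutrophil factor, did not pass and its groups overlapped. It had -0.75 and -0.63 on the negative arrays and -0.72 and -0.46 on the positive arrays, and exp 2 was the higher array in both groups. The log2 difference was 0.10 (SE 0.11, limma adjusted p = 0.485). It ran from -0.21 with spike-in scaling to 0.19 with normexp background correction among the 8 scalings, and was -0.03 without positive replicate 2. Relative to the all-gene median it lay between -0.06 and 0.12, and was -0.06 by construction in the scalings that shift whole arrays. The probe was above background on all 4 arrays, so Cebpe transcript was measurable in both groups.

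Cebpz, the gene of the nucleolar protein without a leucine zipper, differed little between replicates. Its values were 2.56 and 2.57 on the negative arrays and 2.94 and 2.96 on the positive arrays. The groups did not overlap, and the positive one was higher by 0.38 on the log2 scale (SE 0.05, 1.30-fold; limma adjusted p = 0.00703). It fell to 0.13 with quantile normalization (adjusted p = 0.09) and to 0.07 with spike-in scaling (adjusted p = 0.333), where it did not pass. Relative to the all-gene median it lay between 0.09 and 0.22, and was 0.22 by construction in the scalings that shift whole arrays. Without negative replicate 1 or 2 the adjusted p was 0.0558 and 0.0532.

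**Figure D2:**
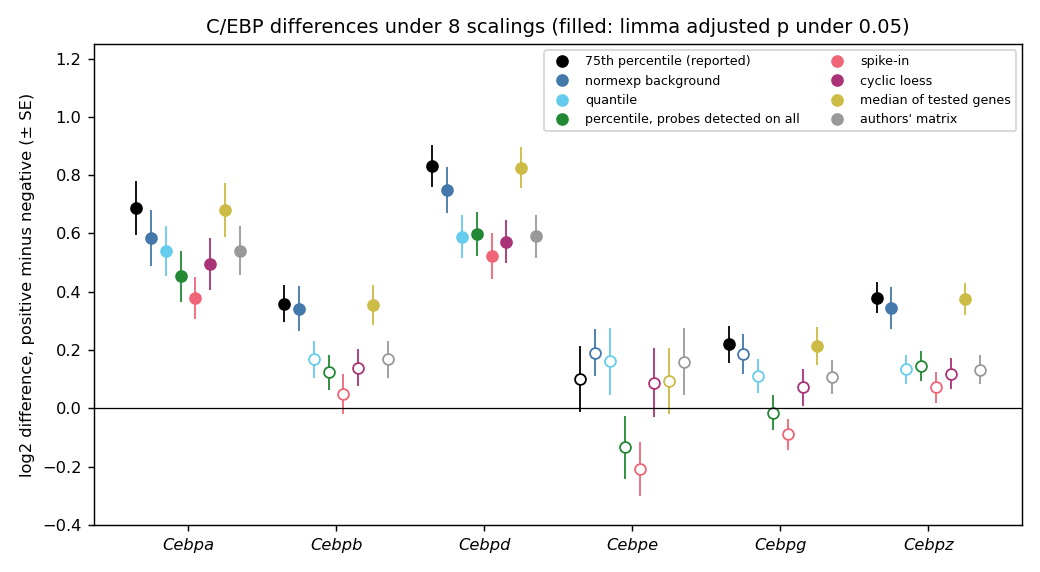
Log2 difference of each C/EBP gene, positive minus negative, with its standard error (vertical axis), under 8 ways of scaling the same 4 arrays; filled points have a limma adjusted p under 0.05. Cebpa and Cebpd are filled under every scaling, whereas Cebpb, Cebpg and Cebpz are filled only under some and Cebpe under none.

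Bright genes as a whole had higher differences, so each member was also set against genes of like brightness. In 10 equal bins of all tested genes by mean signal, the median difference went from -0.15 in the dimmest bin to 0.42 in the brightest. Cebpb lay 0.16, Cebpz 0.09, Cebpg 0.08 and Cebpe 0.08 above the median of its bin. Cebpa lay 0.49 and Cebpd 0.55 above theirs, higher than 91.1% and 94.1% of the genes of their bins.

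**Figure D3:**
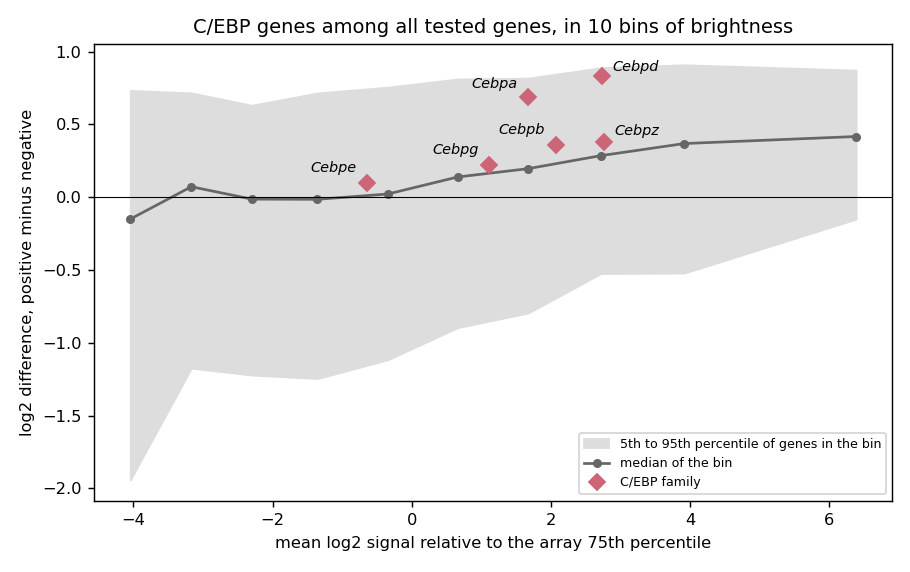
Log2 difference, positive minus negative (vertical axis), against mean log2 signal relative to the array 75th percentile (horizontal axis) for the 6 C/EBP genes (diamonds) over the median and the 5th to 95th percentile of all tested genes in 10 bins of brightness. Cebpa and Cebpd lie well above the median line and inside the grey band, and the other 4 lie near the line.

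The ratio of 2 members within an array does not depend on a factor applied to the whole array, and it was compared for 15 pairs. In 12 pairs the ratios of the 2 groups did not overlap, a share near the 78.7% of the ratios between a member and each other tested gene, so the count says nothing particular about the family. With 2 arrays a group, the smallest two-sided p of the exact permutation test is 0.333, so no pair could reach the threshold. The log2 ratio of Cebpa to Cebpe was 2.02 and 2.01 on the negative arrays and 2.64 and 2.56 on the positive ones, a shift of 0.59 toward Cebpa. The ratio of Cebpd to Cebpe shifted by 0.73 and that of Cebpd to Cebpg by 0.61. The ratio of Cebpa to Cebpg shifted by 0.47. Cebpa and Cebpd could not be ordered, with a shift between them of -0.14 and overlapping groups, and neither could Cebpb and Cebpz (-0.02) or Cebpe and Cebpg (-0.12).

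Genes beside the members on the chromosome were compared by the order of the RefSeq table. Spidr, a DNA repair gene that overlaps the end of Cebpd in that table, rose too, from 2.16 and 2.21 to 2.82 on both positive arrays (limma adjusted p = 0.00265), as did Mzt2 on the other side (adjusted p = 0.00442). Ndufaf7 beside Cebpz was also higher (adjusted p = 0.00601). Cebpzos on the other side of Cebpz had 0.28 (adjusted p = 0.0323), a call lost under most scalings and reversed to -0.03 with spike-in scaling. The amino acid transporter gene Slc7a8 next to Cebpe fell from -1.81 and -1.78 to -3.24 and -3.43 (adjusted p = 0.00164). The calls of Spidr, Mzt2, Ndufaf7 and Slc7a8 held under every scaling. Beside Cebpg, Pepd had 0.56 (adjusted p = 0.00716), a call lost under quantile normalization, cyclic loess, in the authors' matrix values and without negative replicate 1. Beside Cebpb, Ptpn1 had 0.34 (adjusted p = 0.0109), a call lost under 3 scalings and without either negative array, and Tmem189 had 0.19 and did not pass (adjusted p = 0.0695). On the other side of Cebpe, 1700123O20Rik had 0.20 and did not pass (adjusted p = 0.0685), and Slc7a10 after Cebpa was above background on no array.

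The genes whose 4 array values followed each member most closely were found by the distance between values centred on the gene's mean, over 4 arrays and 13341 named genes. For Cebpd these were Donson, Emc8 and Havcr2, at distances from 0.0055 to 0.041. For Cebpa they were Chid1, Senp1 and Mmd, at 0.028 to 0.038. Cebpb was followed by Aatk, Fam117a and Mppe1, Cebpe by Errfi1, Rxylt1 and Zfp944, Cebpg by Lsm10, Isca1 and Ppp2r5a, and Cebpz by Creb1, Tfam and Prcc. Within a distance of 0.1 there were 75 genes for Cebpd, 90 for Cebpe, 157 for Cebpa, 842 for Cebpb, 984 for Cebpg and 1222 for Cebpz, so the 3 nearest are a small part of many like patterns.

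Other genes of C/EBP biology were taken from 7 lists with 78 entries. Among all tested genes 38.5% were called higher and 21.4% lower, the shares to set beside the counts of each list. Of the 14 tested bZIP relatives and dimer partners, 4 were higher, 7 were lower and 3 did not pass; their median was -0.26, where that of all genes was 0.16. Nfil3, a repressor of this class, went from 0.30 and 0.42 to 2.04 and 2.06, a rise of 1.69 (SE 0.07, limma adjusted p = 0.0013). Hlf, a factor of blood stem cells, fell by 2.38 (SE 0.07, adjusted p = 0.000945), from 4.45 and 4.49 to 2.15 and 2.04. Batf2 fell by 1.40 and Jun by 1.36, both past the threshold under every alternative. Ddit3, which encodes CHOP, a stress-induced partner that blocks DNA binding of other C/EBP proteins, was called lower (-0.50, adjusted p = 0.00408). Atf4, whose protein pairs with C/EBP gamma, had 0.47 (adjusted p = 0.00555), but the call was lost with spike-in scaling and cyclic loess and the sign turned under quantile normalization and in the authors' matrix values (-0.02 at the lowest).

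Among regulators of C/EBP protein the Tribbles genes stood at the low end. Trib2, a pseudokinase that brings C/EBP alpha to the ubiquitin ligase COP1, had -2.20 and -2.19 on the negative arrays and was not well above background on either positive array, measured by 1 of its 2 probes. In the main processing Trib2 was at least 3.49-fold lower in the positive group (limma adjusted p = 0.00317). This bound sets the mean of the brighter group against the dimmest measurable signal or the probe's own, whichever is higher. Over 19 alternatives its fitted log2 difference ran from -3.55 to -0.58, so the bound does not hold under all of them. Trib3 went from 1.61 and 1.82 to -0.83 and -0.78, a difference of -2.52 (SE 0.09, adjusted p = 0.00118). Trib1 had -0.34 and did not pass (adjusted p = 0.0979). Cop1 itself had 0.47 (adjusted p = 0.00519), with its 3 probes between 0.10 and 0.48, but the call was lost under quantile normalization, spike-in scaling, cyclic loess and in the authors' matrix values. Calr, which encodes calreticulin, a protein reported to hold back Cebpa translation, rose by 0.85 (adjusted p = 0.0019). Of the 9 genes of this list 3 were higher, 2 were lower and 4 did not pass, with a median of 0.17.

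Factors that act with or before C/EBP proteins went both ways. Of 10 tested 5 were higher, 3 were lower and 2 did not pass, with a median of 0.13. Under spike-in scaling 1 was higher and 5 lower, against 14.8% and 36.2% of all genes. Cbfb had 0.57 (adjusted p = 0.00333), but its call was lost under quantile normalization, cyclic loess and in the authors' matrix values. Spi1, which encodes PU.1, went from 0.11 and 0.19 to 0.63 and 0.64 (difference 0.48, adjusted p = 0.00512), a call lost under spike-in scaling. Gata2 fell by 1.15 (adjusted p = 0.00164) and Gfi1, a repressor needed for neutrophils, by 0.68 (adjusted p = 0.00378), both under every alternative.

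Early myeloid targets of C/EBP factors were mostly higher. Of 13 tested, 10 were higher and 3 did not pass. Their median was 1.46, and 10 were higher under each of the 8 scalings, in which 14.8% to 44.8% of all genes were higher. Hp, which encodes haptoglobin, went from -1.49 and -1.35 to 2.74 and 2.82 (difference 4.20, SE 0.08), and the cathepsin G gene Ctsg from 4.63 and 4.51 to 7.77 and 7.76 (3.19, SE 0.07). Ms4a3 rose by 2.88 and Csf1r, the M-CSF receptor gene, by 2.74, although the 3 probes of Csf1r ranged from 0.66 to 2.91. The adjusted p was 0.000802 for each of the 4. Csf3r, the G-CSF receptor gene that C/EBP alpha is known to activate, had 7.88 and 7.69 in the negative group against 7.69 and 7.55 in the positive (difference -0.16, adjusted p = 0.23), Csf2ra had -0.28 (adjusted p = 0.061) and Lyz2 had 0.01. With spike-in scaling the 3 genes that had not passed were called lower. The list was made with earlier results of these data known, so its count is not independent evidence.

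The late granule genes linked to C/EBP epsilon gave another picture. Of 15 on the array 8 did not pass the filter on dim probes and were above background on 0 of 4 arrays, among them the lactoferrin gene Ltf, Ngp, Mmp8 and Mmp9. Of the 7 tested, Chil3 (0.89, adjusted p = 0.0036) and Lcn2 (0.43, adjusted p = 0.0158) were higher, the latter not with spike-in scaling, the percentile over probes above background on all arrays or without negative replicate 1. Pglyrp1 (-1.15), S100a9 (-1.11) and Padi4 (-1.02) were lower, with adjusted p-values of 0.00186 to 0.00196, and S100a8 (-1.16) and Camp (-0.09) did not pass. The median of the 7 was -1.02, and -0.21 with normexp background correction.

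Genes that C/EBP alpha is known to repress did not share a direction. Mycn went from 2.71 and 2.66 to 0.61 and 0.46 (difference -2.15, SE 0.08, adjusted p = 0.00115), while Myc (0.58, adjusted p = 0.00286) and E2f1 (0.88, adjusted p = 0.00227) were higher and Sox4 had 0.03 and did not pass. Around Cebpz, 10 genes of the nucleolar Noc proteins, their ribosome assembly partners and the METTL3 complex were tested. Of these 8 were higher, 1 was lower and 1 did not pass, with a median of 0.50. Among all tested genes 38.5% were higher and 21.4% lower, and in the brightness bin of Cebpz 56.4% were higher. Noc4l (0.97), Bop1 (0.88), Rrp12 (0.83) and Noc2l (0.65) led it, with adjusted p-values of 0.00185 to 0.00567, and Noc3l was called lower (-0.27, adjusted p = 0.0346), a call lost when any 1 array was left out. Under spike-in scaling 5 of the 10 were higher and 1 lower, against 14.8% and 36.2% of all genes.

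**Figure D4:**
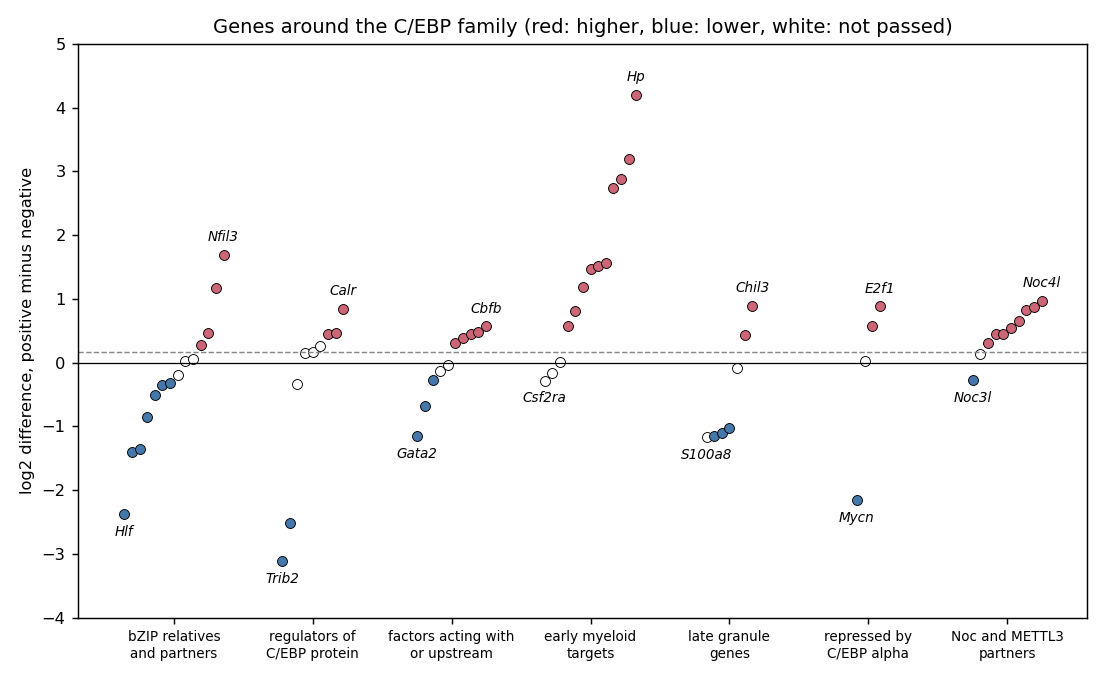
Log2 difference, positive minus negative (vertical axis), of each tested gene of 7 lists around the C/EBP family; red points were called higher, blue points lower and white points did not pass at a limma adjusted p of 0.05, and the dashed line is the median of all tested genes (0.16). Early myeloid targets extend up to Hp at 4.20; Trib2 and Fos are plotted at their fitted values although the positive group was not above background.

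Among markers of other cell types, mainly the megakaryocyte and erythroid ones were called, and these were lower in the positive group. Of all tested genes 21.4% were called lower and 38.5% higher. All 4 megakaryocyte markers (Pf4, Itga2b, Gp9 and Vwf) were called lower in the positive group, and their summed linear signal relative to the array percentile was 6.28 and 6.35 on the negative arrays against 2.27 and 2.32 on the positive ones. Of the erythroid markers Hba-a1 (-1.27), Hbb-bt (-0.59) and Epor (-0.32) were called lower, but Epor lost its call under several scalings and turned to 0.11 with normexp, and Klf1 did not pass (0.22, limma adjusted p = 0.132). Of 6 mature neutrophil markers 3 were above background on no array and 1, S100a9, was lower, with sums of 0.843 and 0.874 against 0.476 and 0.563. Of the 4 macrophage markers Adgre1 was higher (0.91), although dim, with -3.66 and -3.83 on the negative arrays. C1qa (-0.05) and C1qb (0.04) did not pass and their groups overlapped, and Mrc1 was above background on no array. Of the 4 B cell and 4 T cell markers 2 each were tested and did not pass (limma adjusted p of 0.0582 to 0.227). The part of such cells in the C/EBP differences was not tested.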

How the data were processed

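Total RNA of 4 sorted samples was hybridized to one-colour Agilent arrays. Per the file headers, the deposited intensity values are processed signals of each array, written by Agilent Feature Extraction (version 10.7.3.1); the steps within it are not analysed here. The authors' matrix holds quantile-normalized intensity values, judging from identical sorted values in every column; no source here states its scale or centring. Outlier spots were left out, and 12 probes were lost by this. Spots were averaged, log2 transformed and scaled to the 75th percentile. Probes well above background on both arrays of 1 or both groups were kept (30478), and a gene was its brightest kept probe. Names came from RefSeq accessions (26756 probes with 1 symbol). The array design is annotated on another build than the RefSeq table. limma 3.58.1 in R 4.3.3 was fitted over all 22362 genes, without a block, two-sided, with Benjamini-Hochberg adjustment at 0.05. Alternatives were the replicate block, leaving out each array, other background corrections, scalings, filters, variance priors, probe rules and thresholds. Named list genes are up to 4 per list with the largest absolute change past the threshold; other list, marker and neighbour genes were named after their values were seen. Members and lists were chosen with earlier results of these data known. The number of arrays limits the precision. The result of 1 further marker gene is not reported here.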

Additional observations from a re-analysis of the deposited data

How the results depend on the processing

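Cebpa and Cebpd kept direction and call in all 20 alternatives, with log2 differences of 0.38 to 0.78 and 0.52 to 0.90. These alternatives were not independent checks. The block, the filters, the variance priors, the probe rules and the thresholds left the differences at 0.69 and 0.83. A threshold of 0.1 could not lose a call. The authors' matrix kept the order of the same signals and nearly repeated quantile normalization (Cebpa 0.54 in both). Of the family, 5 were called higher, but 2 with quantile normalization, with the percentile over probes above background on all arrays, with spike-in scaling, with cyclic loess and in the authors' matrix values, and 3 at an adjusted p of 0.01; leaving out 1 array gave 2 to 4. Of all genes, 22.4% were higher at 0.01, 21.3% to 35.8% with 1 array left out, and 19.6% higher and 32.4% lower under the detected-probe percentile. None was called lower in any setting by limma. Cebpb lost its call under quantile normalization (0.17), the detected-probe percentile (0.12), spike-in scaling (0.0502), cyclic loess (0.14), the authors' matrix (0.17) and a threshold of 0.01 (0.36), with 0.32 to 0.40 when 1 array was left out. Cebpz lost it under the same scalings (0.13, 0.15, 0.0718, 0.12 and 0.13), with 0.37 to 0.39 when 1 array was left out. Cebpg lost it under normexp (0.19), quantile normalization (0.11), cyclic loess (0.0715), the authors' matrix (0.11), no filter, probes in place of genes and a threshold of 0.01 (0.22 in each), and reversed with the detected-probe percentile (-0.0153) and spike-in scaling (-0.0894); without 1 array it was 0.17 to 0.27. Cebpe reversed with the detected-probe percentile (-0.13), spike-in scaling (-0.21) and without positive replicate 2 (-0.029), and ran from -0.03 to 0.23 when 1 array was left out. The cause of these changes was not tested. With the replicate number as a block, Cebpg no longer passed (log2 difference 0.22, adjusted p = 0.0521) and 4 members were called higher, against 40.7% of all tested genes. The block changed no other member's call. The labels do not tie same-numbered arrays together, and the correlation of their deviations was 0.097. Of 27 list genes named by rule, 24 kept call and direction under the alternatives tested, apart from the stricter threshold, and none of the 27 reversed. They were picked as the largest called changes of these data, so their stability does not describe the whole lists. Among called list genes outside the 27, Atf4, Atf5, Klf5, Myb and Pes1 lost the call and changed sign under some scalings. Others, such as Batf3 and Elane, kept the call. Signal over background limits Trib2 and Fos, which have only bounds.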
